A study of Mus musculus with 27 samples.

Results

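The interferon-response genes described here are 38 genes that mammalian cells are known to switch on when type I or type II interferon binds its receptors, together with the transcription factors that carry that signal. They were taken by gene symbol from a set list, chosen with earlier results of these data known. All 38 were found among the 24000 gene symbols of the count tables. The cells were Ba/F3, a mouse pro-B cell line that depends on the cytokine interleukin 3 (IL3) for growth, and the readout was RNA sequencing of polyA RNA. Wild-type cells were starved of IL3 for 6 h (n = 5 libraries) or starved in the same way before 30 min with 10 ng/mL of IL3 (n = 5). Cells carrying lentiviral short hairpins against no target (n = 5), STAT5A, STAT5B, LSD1 or HDAC3 (n = 3 each) had been selected with puromycin for at least 1 week, and all of them had been starved and restimulated with IL3 before harvest. No interferon was given in any of the 7 groups.

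Interferons bind receptors on the cell surface, whose kinases, JAK1 with TYK2 or JAK2, then activate transcription factors. Complexes that contain IRF9 bind the interferon-stimulated response element (ISRE) in the promoters of target genes, and type II interferon also acts through the gamma-activated site (GAS). IL3 signals through JAK2 and STAT5, which recognises sites of the GAS type. Many interferon-response genes are known to keep a low level of expression without added interferon. LSD1 is a histone demethylase and HDAC3 a histone deacetylase, and both are known as parts of repressor complexes.

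Depth ranged from 5.48 to 33.8 M reads counted in genes per library. In 5 libraries (HDAC3 replicates 1 and 2, LSD1 replicate 1, and no-target replicates 1 and 3) 14.0 to 24.9% of the reads lay outside annotated genes, against 8.70 to 11.99% in the other 22, and these 5 were also shallow, at 5.48 to 7.53 M counted reads. Values without these 5 libraries are given beside the results they move most. Without them, 35 members were tested. Those with an unadjusted edgeR p under 0.05 numbered 4 after IL3, with 2679 of 12224 genes at that level, and 6 in no-target against wild type (1080 genes). They numbered 1 with STAT5A (507 genes), 1 with STAT5B (1175 genes) and 4 with LSD1 knockdown (966 genes). For HDAC3 knockdown a single library remained, so no count is given. The targeted genes fell: Stat5a remained at 32.7 to 38.05%, Stat5b at 25.3 to 31.1%, Kdm1a (LSD1) at 38.1 to 70.6% and Hdac3 at 34.1 to 63.7% of their mean in the no-target libraries (each called in its own comparison, edgeR adjusted p 0.0130 or less). Among B-lineage markers, the receptor genes Cd79a and Cd79b and the leukocyte gene Ptprc had a median of 28.6 CPM (counts per M reads of the scaled library size) or more, while Pax5, Ebf1 and Rag1 had a median of 0 CPM. Of 5 markers listed for dendritic cells, which are known as interferon sources, Siglech, Flt3, Itgax and Zbtb46 had medians from 0 to 0.0586 CPM, and Bst2, which is also a member of the module, had a median of 58.8 CPM. In bulk RNA, fewer cells that express a gene and less RNA per cell cannot be told apart.

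Promoter sequence was available for 30 of the 38 genes (RefSeq, GRCm38.p6, 250 bases before to 50 bases after each annotated start). At least 1 ISRE match (GAAA, then any 2 bases, then GAAA, on either strand) lay in a window of 14 of the 30 genes (46.7%), compared with 3.99% of the 27025 genes with a window. At least 1 GAS match (letters TTCNNNGAA, which reads the same on both strands) lay in 12 of the 30 (40%), compared with 9.55% of all genes. These matches are letters in a window, not bound sites. The windows of 5 genes, picked after their values were seen, are shown as examples of different levels and motif arrangements. Each of them holds a match, while other members, such as Irf7 and Tap1, had none in their window. Capitals mark the ISRE and GAS matches, and positions are those of a match's first base, counted from the annotated start. In the Ifitm3 window the GAS match begins between the ISRE matches and runs into the one at 19.
Isg15, chr4:156200769-156201068, minus strand, with 3 overlapping ISRE matches that begin at -78, -72 and -66: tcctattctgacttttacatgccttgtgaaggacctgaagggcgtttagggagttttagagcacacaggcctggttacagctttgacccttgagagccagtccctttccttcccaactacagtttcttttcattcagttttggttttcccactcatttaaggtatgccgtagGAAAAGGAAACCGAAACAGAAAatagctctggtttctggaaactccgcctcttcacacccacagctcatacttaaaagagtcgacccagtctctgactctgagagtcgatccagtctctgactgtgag
Gbp3, chr3:142559794-142560093, plus strand, with 2 overlapping ISRE matches at -45 and -39, read on the opposite strand: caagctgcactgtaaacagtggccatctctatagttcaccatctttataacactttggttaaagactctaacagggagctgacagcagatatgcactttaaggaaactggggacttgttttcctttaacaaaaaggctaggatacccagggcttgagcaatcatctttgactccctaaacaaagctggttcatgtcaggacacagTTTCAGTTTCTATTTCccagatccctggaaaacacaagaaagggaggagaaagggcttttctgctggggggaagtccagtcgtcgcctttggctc
Irf1, chr11:53769764-53770063, plus strand, with a GAS match at -90 and no ISRE match: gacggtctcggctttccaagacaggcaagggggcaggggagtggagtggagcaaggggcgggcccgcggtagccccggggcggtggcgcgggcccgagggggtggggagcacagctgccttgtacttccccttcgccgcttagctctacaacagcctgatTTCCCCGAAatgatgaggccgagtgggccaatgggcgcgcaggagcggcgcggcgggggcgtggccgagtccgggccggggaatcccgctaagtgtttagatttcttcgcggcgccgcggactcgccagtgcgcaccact
Bst2, chr8:71537423-71537722, minus strand, with a GAS match at -136 that runs into ISRE matches at -130 and -124: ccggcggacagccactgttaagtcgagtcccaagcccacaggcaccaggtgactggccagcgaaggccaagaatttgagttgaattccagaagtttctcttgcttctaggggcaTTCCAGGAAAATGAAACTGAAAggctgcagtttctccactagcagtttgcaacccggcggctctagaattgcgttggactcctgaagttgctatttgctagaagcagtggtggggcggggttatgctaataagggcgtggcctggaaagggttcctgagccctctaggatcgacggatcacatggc
Ifitm3, chr7:141010695-141010994, minus strand, with ISRE matches 2 and 19 bases after the start and a GAS match between them at 13: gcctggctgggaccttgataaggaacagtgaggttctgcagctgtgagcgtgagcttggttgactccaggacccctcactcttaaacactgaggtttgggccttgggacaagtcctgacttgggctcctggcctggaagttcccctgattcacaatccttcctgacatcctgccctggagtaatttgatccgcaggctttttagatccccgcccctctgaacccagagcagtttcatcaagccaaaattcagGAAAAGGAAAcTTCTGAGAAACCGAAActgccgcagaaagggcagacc
The Isg15 window holds 3 ISRE matches, the most of these 5, and Isg15 had 301 counts over all libraries, while Ifitm3 was the most abundant member. Across the 30 genes the median level was 0.904 CPM per kb of exon for those with an ISRE match and 5.40 CPM per kb for those without, and both sets were wide, from 0.00225 to 348 and from 0.00450 to 23.1 CPM per kb. For the GAS match the order was the other way, with a median of 11.7 CPM per kb with it and 0.814 without.

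Most of the 38 genes were transcribed at a low or middling level. Averaged over the 27 libraries, 9 were below 1 CPM, 11 lay between 1 and 10 CPM and 18 were at 10 CPM or more, of which 3 exceeded 100 CPM. Their median over all 38 was 7.504 CPM. The 12073 genes that passed the filter on low counts had a median of 37.4 CPM, which is not like for like, since the 38 include members below the filter. Of the members, 34 passed that filter, and 18 of these 34 were at 10 CPM or more, as were 8883 of the 12073 genes. Mx2, annotated as a polymorphic pseudogene, and Ifih1, Rsad2 and Ifi44 did not, with totals of 111, 4, 2 and 7 counts over all 27 libraries. A count of 0 in a library allows a level of up to 0.0889 to 0.528 CPM (3 counts, by depth), a limit that covers counting error only.

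**Figure D1:**
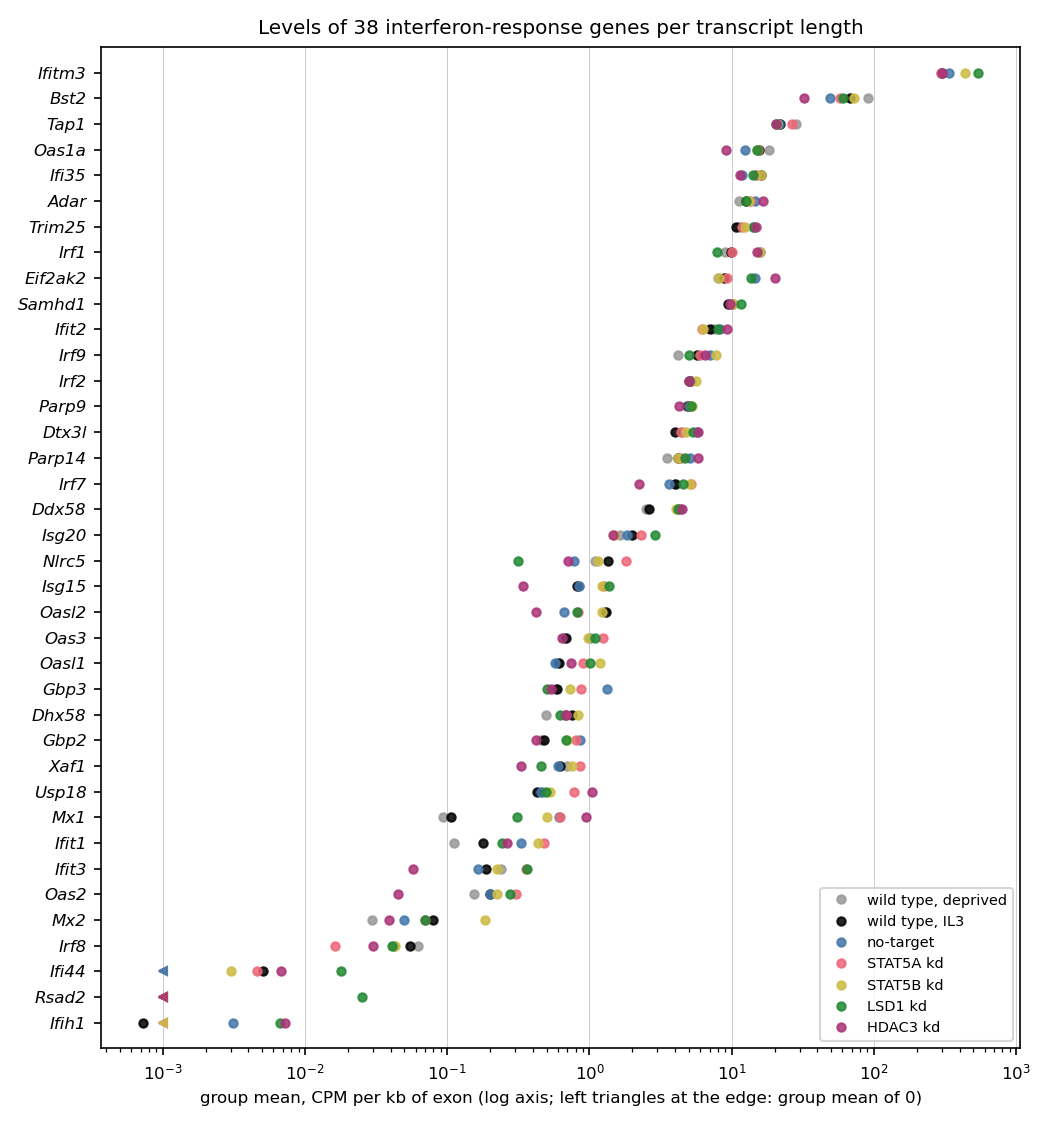
Mean level of each of the 38 genes in each of the 7 groups, in CPM per kb of exon on a log axis, with genes ordered by their mean over the groups; each dot is a group and triangles at the left edge mark a group mean of 0. Ifitm3 stands at 359 and Ifih1 at 0.00253 CPM per kb, and for most genes the 7 group means lie close together compared with the distance between genes.

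Per kb of exon, the order of levels was led by membrane and antigen-presentation genes. Ifitm3, a transmembrane protein that blocks viral entry, averaged 359 CPM per kb over the groups, with group means from 295 to 541. Bst2, the tetherin that holds budding virions at the cell surface, averaged 61.6 CPM per kb (group means 32.4 to 90.7). Tap1, a subunit of the peptide transporter that loads MHC class I, followed at 22.8 CPM per kb (20.4 to 28.5). The group means of these 3 genes did not overlap with each other.

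The next genes overlapped in level. Oas1a (an RNA-sensing oligoadenylate synthetase) at 14.4 CPM per kb, Ifi35 at 14.2, the RNA-editing enzyme Adar at 13.4, the ubiquitin ligase Trim25 at 12.8, the transcription factor Irf1 at 11.9, the RNA-activated kinase Eif2ak2 (PKR) at 11.8 and the dNTP hydrolase Samhd1 at 10.2 had group means that crossed one another. Reads of Oas1a could be shared with near-identical copies in its cluster, so its level is uncertain, and the same holds for members of the Ifit cluster.

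Several genes widely used as signs of an interferon response had low levels. The ubiquitin-like modifier Isg15 averaged 0.961 CPM per kb, the antiviral GTPase Mx1 0.454, the RNA-binding protein Ifit1 0.292 and Oas2 0.200 CPM per kb. The RNA sensor gene Ifih1 (MDA5) had no count in 23 of the 27 libraries, and Rsad2 (viperin) had none in 26. Its only 2 counts were in LSD1 replicate 1. In contrast, the other RNA sensor Ddx58 (RIG-I) was present in every library at 13.7 to 45.6 CPM, and Dhx58 (LGP2) at 0.881 to 3.60 CPM.

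By role, the 5 interferon regulatory factors had a median of 5.14 CPM per kb, with Irf1 the highest and the myeloid and B-cell factor Irf8 the lowest, at 0.0412. All 20337 bases of the Irf8 gene overlap Gm20388 on the same strand, so reads could have been lost there and its level is uncertain. Other overlaps, each on the opposite strand, are Irf1 with Gm17334 (907 bases), Adar with Chrnb2 (7252 bases) and Parp9 with Dtx3l (682 bases). The 6 genes of ISG15, ubiquitin and ADP-ribose transfer (Isg15, Usp18, Parp9, Parp14, Dtx3l and Trim25) had a median of 4.73 CPM per kb. The 9 nucleic acid effectors had a median of 1.94 and the 10 antiviral effectors a median of 0.541 CPM per kb, the latter spanning Rsad2 at 0.00359 to Ifitm3.

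The machinery that receives an interferon signal was expressed, while the ligands were not detected at a testable level. Of 105 further pathway genes found in the tables, 76 passed the filter. Among them were 5 of 6 receptor chains and all 3 receptor kinases; Ifnar1 had a median of 58.9 CPM, Jak1 of 144 CPM and Tyk2 of 107 CPM. Of 9 interferon genes, 0 passed the filter and 4, including Ifnb1, had no count in any library.

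No member passed the threshold in any of the 8 comparisons (edgeR quasi-likelihood test on counts, Benjamini-Hochberg adjustment over 12073 genes, threshold 0.05). Positive log2 fold changes mean higher in the group named first. Replicates are labelled as biological replicates, and the p-values measure the spread between these libraries. Each comparison follows with its own values, and the knockdown comparisons share the 5 no-target libraries as controls.

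**Figure D2:**
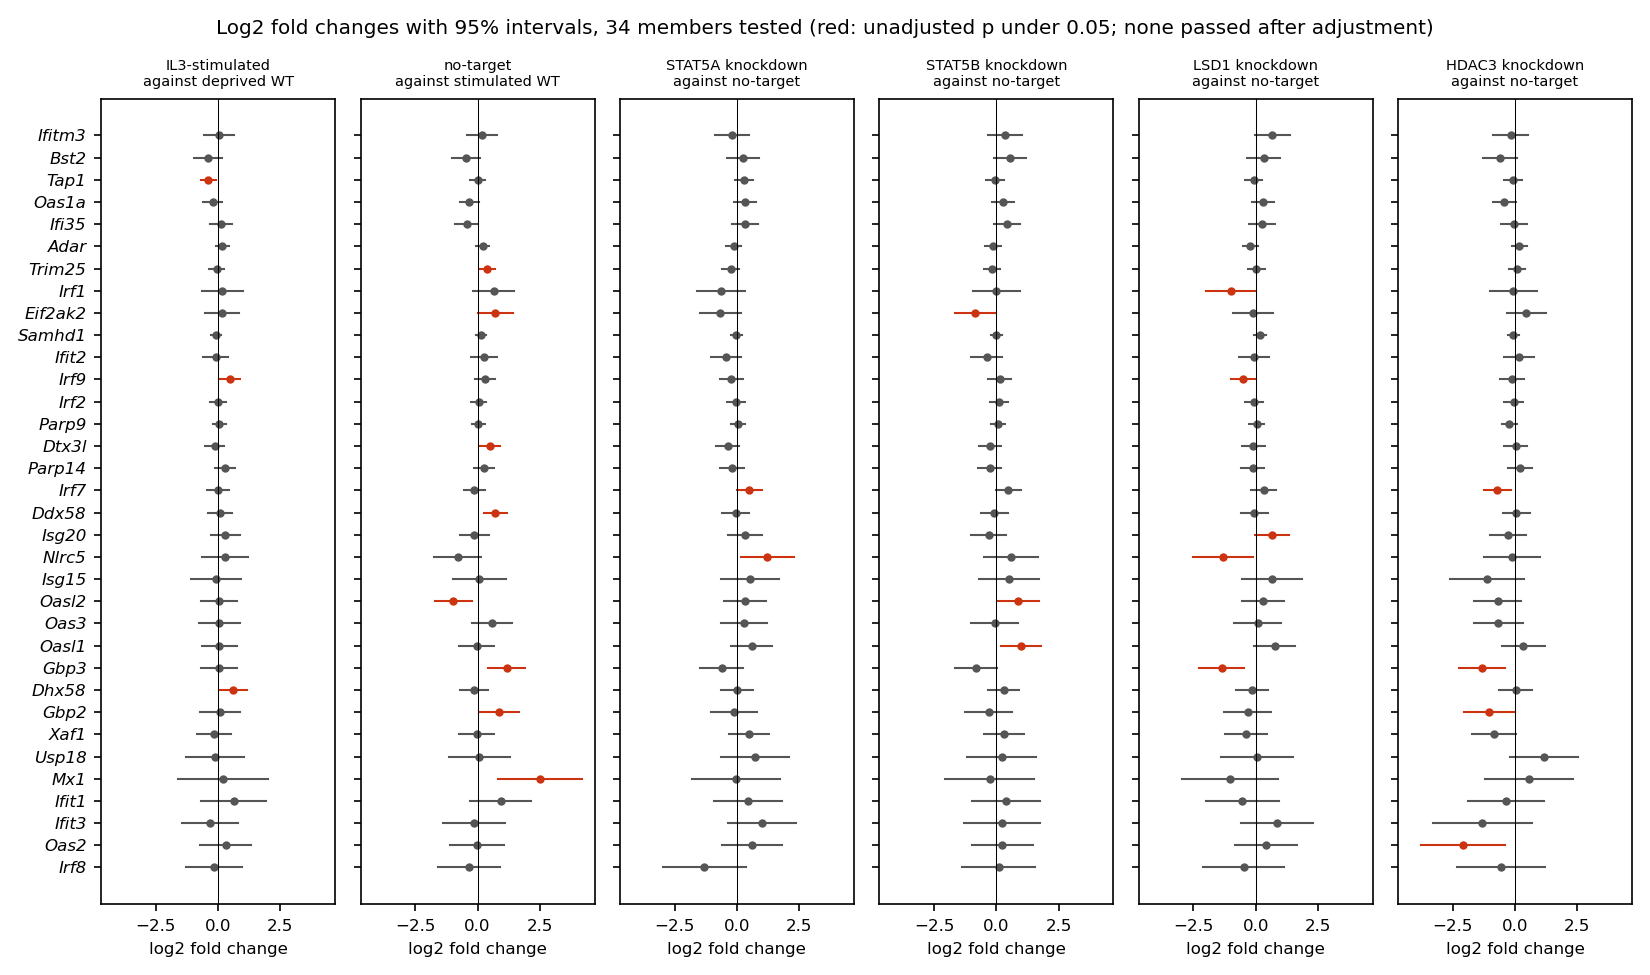
Log2 fold change (dot) with its approximate 95% interval (line) for the 34 members tested in 6 comparisons, with genes in order of level. Red marks an unadjusted p under 0.05; the numbers of red genes from left to right are 3, 8, 2, 3, 5 and 4, and for the genes of low level at the bottom the intervals are wide.

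After 30 min of IL3, no interferon-response gene was called as higher or lower than in starved cells. Of 34 tested members 0 were called, with 3.82% of all genes called in this comparison; 3 members had an unadjusted p under 0.05, with 14.0% of all genes at that level, and DESeq2 also called 0. The median log2 fold change was 0.03 for the members and -0.02 for all genes. For 25 of the 34 members the 95% interval excluded a 2-fold difference in either direction, as it did for 74.0% of all genes. The 3 members with the smallest p were Irf9, Dhx58 and Tap1.

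Gene positions are on GRCm38 (mm10), from GENCODE vM21. Irf9 (chr14:55603571-55610030), a DNA-binding factor of the type I interferon response, stood at 24.4, 23.7, 18.2, 23.5 and 22.4 CPM in the starved libraries 1 to 5 and at 25.4, 31.2, 30.8, 37.8 and 29.4 CPM in the stimulated ones. Every stimulated library was above every starved one. Irf9 overlaps its neighbour Rnf31 by 123 bases, which leaves the source of reads there uncertain. The difference was 0.46 on the log2 scale (SE 0.20), with an adjusted p of 0.268 in edgeR.

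Dhx58 (chr11:100694884-100704271), a helicase that tunes RIG-I and MDA5 signalling, stood at 1.57, 1.31, 1.73, 2.03 and 1.402 CPM in the starved libraries and at 2.16, 2.15, 2.55, 2.79 and 2.64 CPM after IL3. The groups again did not overlap, and the log2 difference was 0.61 (SE 0.26; edgeR adjusted p 0.277). Of all genes, 11.2% had groups without overlap in this comparison, and Irf9 and Dhx58 were 2 of the 34 members.

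Tap1 (chr17:34187553-34197225) was lower after IL3. It stood at 149.9, 138, 181, 153 and 159 CPM in the starved libraries and at 139, 108, 121, 113 and 113 CPM in the stimulated ones. The groups overlapped only through starved replicate 2 and stimulated replicate 1, and the log2 difference was -0.39 (SE 0.15; edgeR adjusted p 0.171). Tap1 overlaps its neighbour Psmb9 on the opposite strand by 212 bases, and the library kit does not mark strand.

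The replicate numbers of the wild-type libraries paired them, and the fit with the replicate block called these 3 genes. In that fit, run on the wild-type libraries alone, Irf9 rose by 0.46 (edgeR adjusted p 0.0233), Dhx58 rose by 0.61 (adjusted p 0.0242) and Tap1 fell by 0.39 (adjusted p 0.0130). The 3 genes were among 29 members tested there, and 22.4% of all genes tested were called in the same fit. In all 5 pairs Irf9, Isg20, Dhx58 and Nlrc5 were higher and Oas1a, Bst2, Samhd1 and Tap1 lower after IL3. These 8 genes are 23.5% of the members, and 43.2% of all genes moved in the same direction in all 5 pairs.

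**Figure D3:**
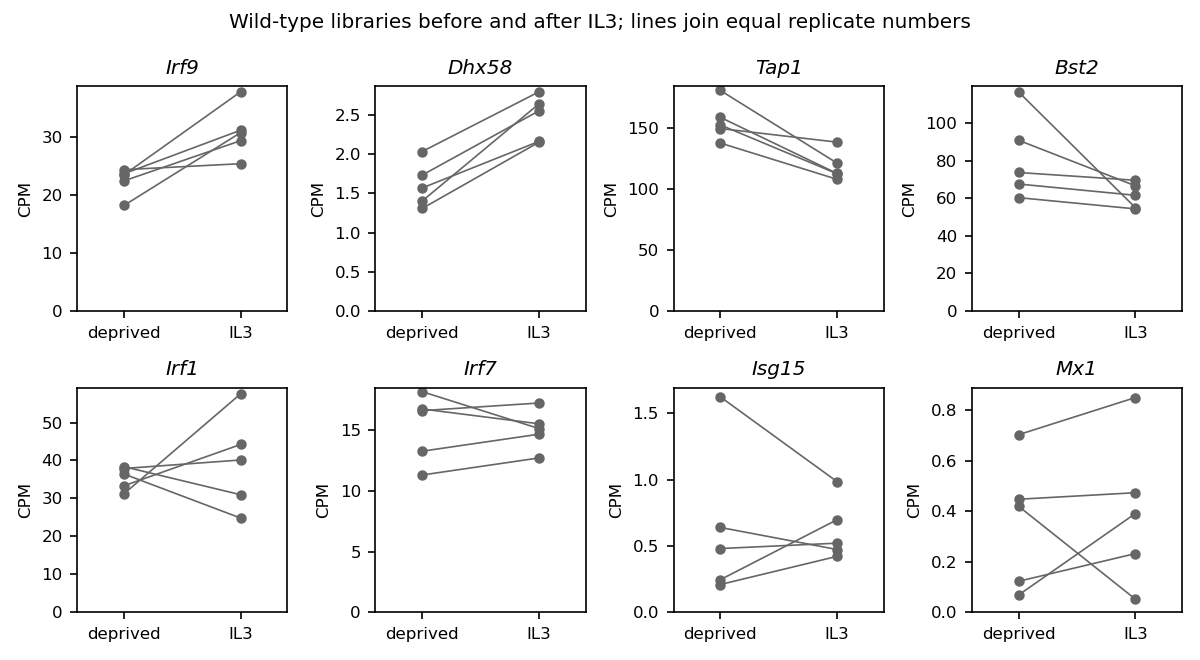
CPM of 8 members in wild-type libraries starved of IL3 (deprived) and after 30 min of IL3, on linear axes from 0; each dot is a library and each line joins libraries with the same replicate number. All 5 lines go up for Irf9 and Dhx58 and down for Tap1 and Bst2, while the lines cross for Irf1, Irf7, Isg15 and Mx1.

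Irf1, a transcription factor gene with a GAS match in the sequences above, had no uniform response. It stood at 33.4, 38.4, 31.2, 37.9 and 36.4 CPM before IL3 and at 44.2, 31.0, 57.6, 40.1 and 24.8 CPM after it. The stimulated libraries spread over the starved range on both sides, and the log2 difference was 0.16 (95% interval -0.66 to 0.98).

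The IL3 signal itself was visible in the pathway genes outside the module. Of the 76 tested, 4 rose and 1 fell. The feedback inhibitors Socs1 and Socs3, which shut off JAK kinases, rose by 7.27 (SE 0.49; edgeR adjusted p 3.08e-10) and 5.93 (SE 0.62; adjusted p 5.42e-07) on the log2 scale, from means of 1.21 to 186 CPM and of 5.86 to 359 CPM. Irf2bpl rose by 0.82 (adjusted p 0.0386) and the sensing adaptor Ticam1 by 0.48 (adjusted p 0.0424), and Tor3a fell by 0.51 (adjusted p 0.0285).

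Cells with the no-target hairpin were compared with stimulated wild-type cells, a comparison in which the vector, the puromycin selection and the separate culture differ together and cannot be told apart. Of 34 members 0 were called, and 0.00% of all genes were called; 8 members had an unadjusted p under 0.05, with 16.9% of all genes at that level, and DESeq2 called 0 members and 122 genes. Of those 8 members, 7 were higher in the no-target libraries. The groups did not overlap for 3 members, Mx1, Ddx58 and Gbp3, and for 5.35% of all genes.

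Mx1 (chr16:97447035-97462907) stood at 0.474, 0.391, 0.851, 0.233 and 0.0528 CPM in stimulated wild-type cells and at 1.08, 1.66, 1.27, 4.86 and 2.66 CPM with the no-target hairpin. All 5 no-target libraries lay above all 10 wild-type libraries, starved or stimulated, whose highest value was 0.851 CPM. Mx1 differed by 2.50 on the log2 scale (95% interval 0.81 to 4.19; edgeR adjusted p 0.215), and by 2.88 when the 5 shallow libraries were left out (adjusted p 0.364).

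Ddx58 (chr4:40203773-40239828) stood at 21.7, 19.3, 17.4, 17.2 and 17.2 CPM in stimulated wild-type cells and at 23.1, 24.4, 43.2, 32.3 and 29.0 CPM with the no-target hairpin. The lowest no-target library was 1 of the 5 with many reads outside genes, and so was the highest. Its log2 difference was 0.71 (SE 0.23; edgeR adjusted p 0.215), and 0.62 without those libraries.

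Gbp3 (chr3:142560026-142573209), an interferon-induced GTPase, stood at 1.60, 2.35, 2.37, 1.63 and 1.64 CPM in stimulated wild-type cells and at 2.43, 6.40, 3.93, 5.60 and 3.17 CPM with the no-target hairpin. The gap between the highest wild-type and the lowest no-target library was small. The resulting log2 difference was 1.17 (SE 0.35; edgeR adjusted p 0.200).

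In the 12 hairpin libraries with a target, Ddx58 exceeded the highest of the 10 wild-type libraries in 9, Mx1 in 8 and Gbp3 in 5. For Gbp3 these included 0 of 3 HDAC3 and 1 of 3 LSD1 libraries. The highest wild-type library was a stimulated one for each gene, and the stimulated libraries took part in picking these 3 genes. The counts are thus not independent of that choice. Among members not picked, Ifit1 and Trim25 exceeded their own mark in 7 of the 12 libraries and Irf7 in 6. The libraries below that mark for both Ddx58 and Mx1 were STAT5A replicate 3, STAT5B replicate 2 and LSD1 replicate 3. Counting all 17 hairpin libraries, the 5 no-target ones included, Ddx58 and Mx1 were the 2 of 34 members above the wild-type range in at least 12, as were 4.38% of all genes; 0 members were below it in at least 12, as were 5.67% of all genes.

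**Figure D4:**
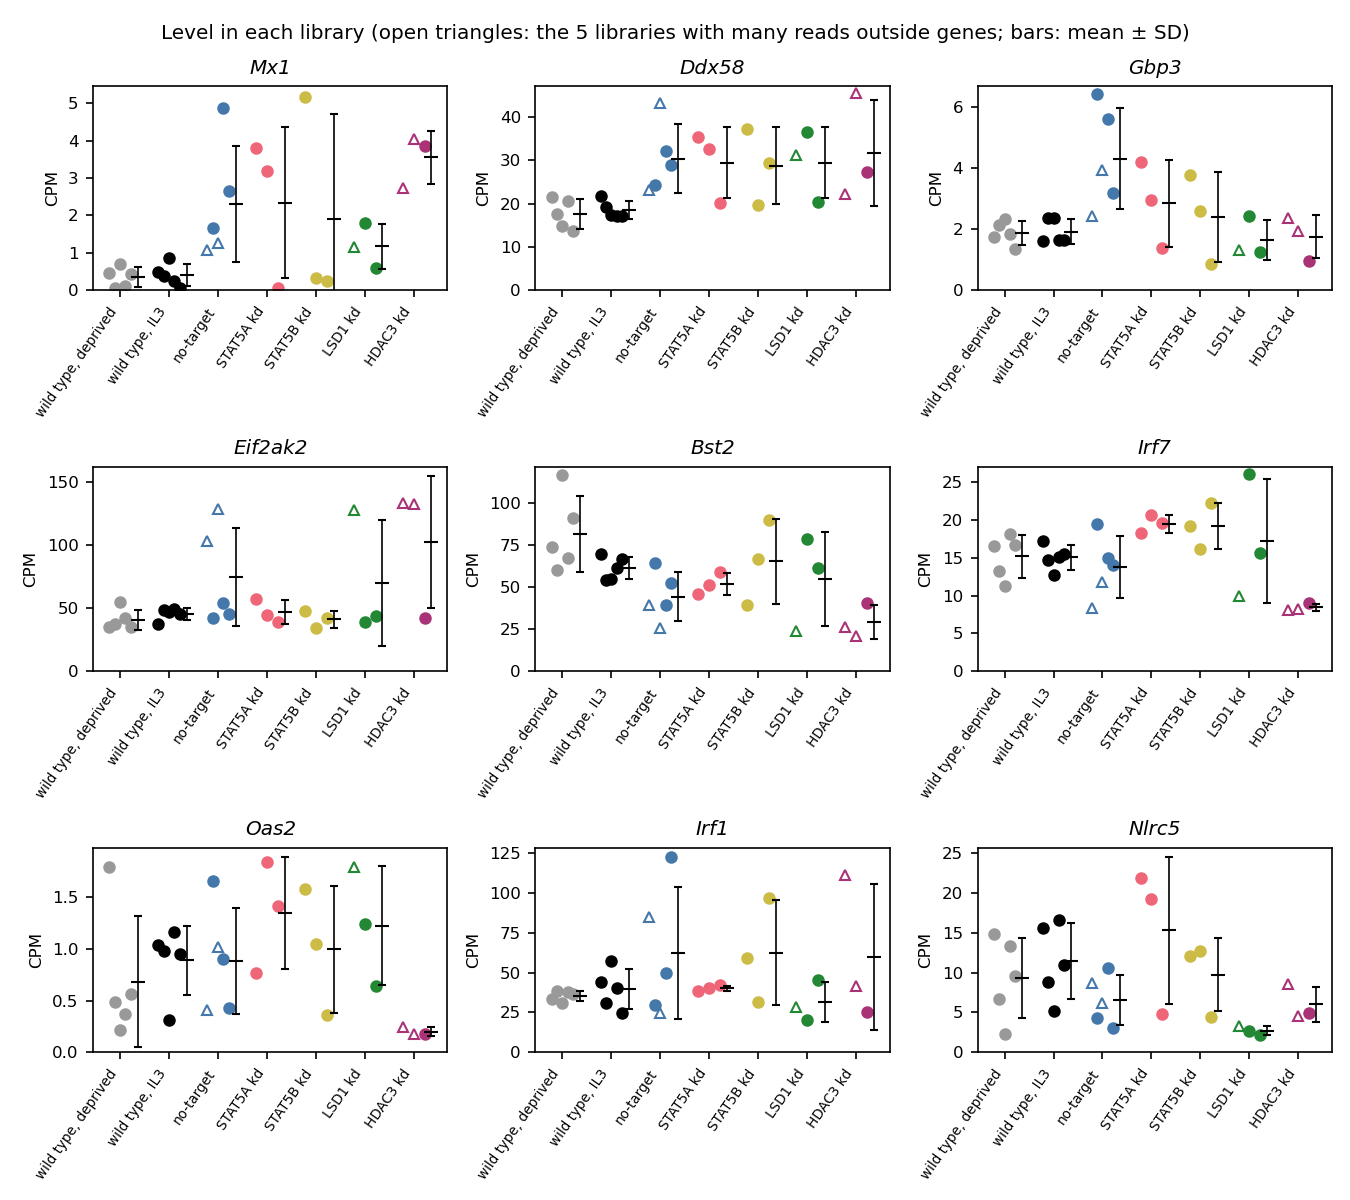
CPM of 9 members in every library of the 7 groups, on linear axes from 0; dots are libraries, open triangles are the 5 libraries with many reads outside genes, and bars are mean ± SD of a group, not drawn below 0. Mx1 and Ddx58 lie low in both wild-type groups and scatter upwards in hairpin groups, and the triangles of Eif2ak2 stand at 103 CPM or more while all other libraries stand at 57.5 CPM or less.

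The 5 libraries with many reads outside genes differed from the rest in several members. Eif2ak2 stood at 103 and 129 CPM in no-target replicates 1 and 3, at 133 and 133 CPM in HDAC3 replicates 1 and 2, and at 128 CPM in LSD1 replicate 1. In the other 22 libraries it ranged from 34.3 to 57.5 CPM. Bst2 went the other way, with 21.1 to 39.2 CPM in the 5 libraries and 39.5 to 117 CPM in the other 22. Ifit2, Parp14 and Trim25 were also higher and Oas1a lower in the 5 libraries without overlap. These 6 genes are 17.6% of the tested members, and 25.3% of all genes had no overlap between these sets of libraries. Against the other 12 hairpin libraries alone, 27.9% of all genes had no overlap.

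Longer transcripts tended to be higher in the 5 libraries. Over the members, Spearman's rho between exon length and the log2 ratio of the 5 libraries to the other 12 hairpin libraries was 0.557 (34 genes in the same libraries), and over all genes with a length it was 0.566 (11435 genes). The short transcripts Bst2, Ifitm3 and Oas1a had ratios of -1.05, -0.88 and -0.74, and the long Parp14 and Adar had 0.66 and 0.41. Other members departed from that order. The long Nlrc5 (8.49 kb) had a ratio of -0.40, and Irf7, of 3.78 kb, had -0.88. Eif2ak2, at 1.48, had the highest ratio of the module and a middling length of 5.11 kb.

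**Figure D5:**
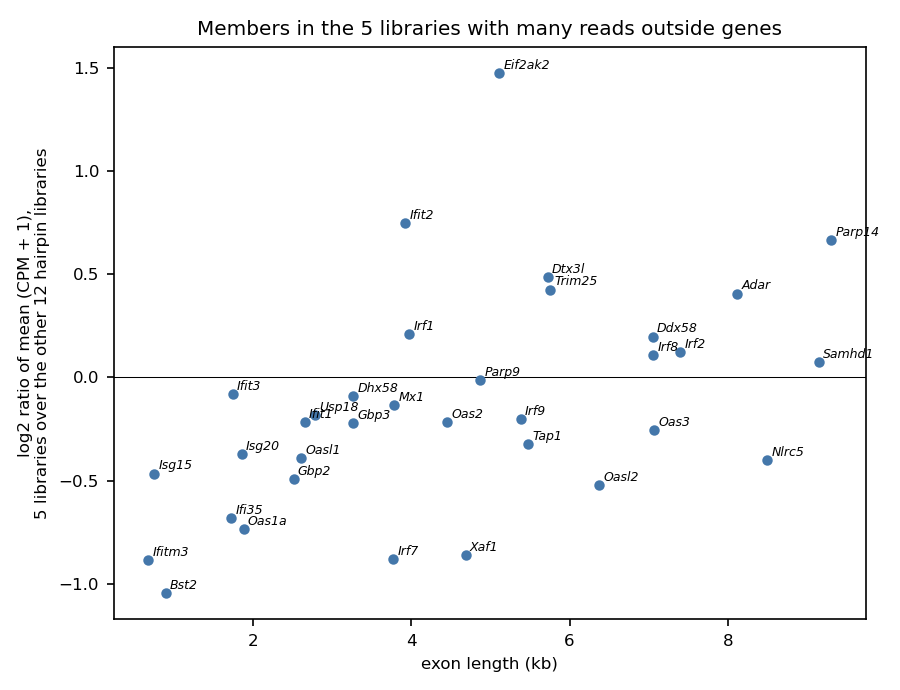
Log2 ratio of mean CPM + 1 in the 5 libraries with many reads outside genes over the other 12 hairpin libraries, against exon length in kb, for the 34 members tested; each dot is a gene. Short transcripts such as Bst2 (-1.05) and Ifitm3 (-0.88) lie below 0. Long ones lie on both sides of it, such as Parp14 (0.66) and Nlrc5 (-0.40), and Eif2ak2 is highest at 1.48.

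Of the no-target libraries 2 of 5 belonged to this set, and 0 of the STAT5A, STAT5B and wild-type libraries did. Comparisons with no-target moved for some genes when the set was left out, and the cause was not tested. For Eif2ak2 the log2 difference of no-target to stimulated wild type was 0.72 over all libraries and 0.06 without the 5 shallow ones, and that of STAT5B knockdown to no-target was -0.85 and -0.20. For Trim25 and Dtx3l the differences of no-target to wild type were 0.39 and 0.50 over all libraries, and 0.20 and 0.37 without the 5.

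Knockdown of STAT5A, which carries the IL3 signal, left the module without a called gene. Of 34 members 0 were called, with 0.0663% of all genes called; 2 members had an unadjusted p under 0.05, with 8.42% of all genes at that level, and DESeq2 called 0. The median log2 fold change was 0.03 for the members and -0.00 for all genes, and 16 of the 34 intervals excluded a 2-fold difference. The groups overlapped for every member tested, and 4.80% of all genes had groups without overlap. The 2 genes with a low p were Nlrc5 and Irf7. Macrophage and monocyte markers summed to 259 to 497 CPM with STAT5A knockdown and 102 to 171 CPM with no target (6 genes, 4 with a median under 1 CPM). Mast cell, basophil and eosinophil markers summed to 905 to 3582 CPM and 113 to 1065 CPM (5 genes, each with a median above 1 CPM). Over all libraries, the macrophage marker Clec4e had a median of 119 CPM and Lyz2 of 6.41 CPM. In the other list Prg2 and Epx had medians of 247 and 246 CPM, and Ms4a2, Cpa3 and Mcpt8 of 5.11 to 5.87 CPM. At their medians Clec4e, and Prg2 with Epx, made up most of these sums. Here and below, a sum that differs does not show a shift of its whole list. The part of either list in these results was not tested.

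Nlrc5 (chr8:94434356-94527272), the transactivator of MHC class I genes, stood at 21.9, 19.3 and 4.77 CPM with STAT5A knockdown and at 8.65, 4.27, 6.21, 10.6 and 3.10 CPM with no target. Replicates 1 and 2 lay above every no-target library and replicate 3 lay among them. This gave a log2 difference of 1.21 (SE 0.51; edgeR adjusted p 0.566).

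Irf7 (chr7:141262706-141266481), the factor that amplifies interferon production, stood at 18.2, 20.6 and 19.6 CPM with STAT5A knockdown and at 8.38, 19.4, 11.8, 15.0 and 14.1 CPM with no target. The no-target libraries at 8.38 and 11.8 CPM were the 2 with many reads outside genes. Irf7 differed by 0.50 on the log2 scale (edgeR adjusted p 0.566) over all libraries and by 0.28 without them. Irf7 overlaps Phrf1 on the opposite strand by 45 bases.

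Knockdown of STAT5B gave a similar count. Of 34 members 0 were called, with 0.340% of all genes called; 3 members had an unadjusted p under 0.05, with 15.9% of all genes at that level, and DESeq2 called 0. The genes were Oasl1, Oasl2 and Eif2ak2. The groups overlapped for every member, and 5.72% of all genes had groups without overlap. Oasl1, an inhibitor of Irf7 translation in mice, stood at 5.27, 2.04 and 1.92 CPM with STAT5B knockdown and at 1.22, 0.829, 1.14, 2.77 and 1.51 CPM with no target. Its difference of 1.01 on the log2 scale (edgeR adjusted p 0.254) became 0.37 (adjusted p 0.596) without STAT5B replicate 1. Its relative Oasl2 differed by 0.88 (edgeR adjusted p 0.292), and under the alternatives tried by 0.62 to 1.09. Macrophage markers summed to 148 to 320 CPM and mast cell, basophil and eosinophil markers to 1006 to 1716 CPM with STAT5B knockdown, against the no-target ranges given above, and their part was not tested.

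Between STAT5A and STAT5B knockdown 0 of 34 members were called, with 0.0248% of all genes called, and 0 had an unadjusted p under 0.05, with 3.39% of all genes at that level; DESeq2 called 0. Irf2 and Parp14 had groups without overlap, as had 7.07% of all genes. The 95% interval excluded a 2-fold difference for 15 of the 34 members and for 69.9% of all genes. For the other 19 members a difference of that size was not excluded.

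Of the pathway genes outside the module, 0 of 76 were called in either STAT5 knockdown. Socs3 had a log2 difference of -2.48 with STAT5A knockdown (edgeR adjusted p 0.232) and -1.27 with STAT5B knockdown (adjusted p 0.310). These 2 values share their controls.

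Knockdown of LSD1 left 0 of 34 members called, with 0.166% of all genes called; 5 members had an unadjusted p under 0.05, with 6.71% of all genes at that level, and DESeq2 called 0. Gbp3, Nlrc5, Irf1 and Irf9 were on the low side and Isg20, an exonuclease, on the high side. The median log2 fold change was -0.05 for the members and -0.02 for all genes. Mast cell, basophil and eosinophil markers summed to 1019 to 4051 CPM and macrophage markers to 150 to 213 CPM with LSD1 knockdown, and their part was not tested.

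Gbp3 stood at 1.31, 2.41 and 1.24 CPM with LSD1 knockdown, below all 5 no-target libraries, of which the lowest was 2.43 CPM. On the log2 scale Gbp3 differed by -1.37 (SE 0.43; edgeR adjusted p 0.356), and 2.80% of all genes had groups without overlap here. The knockdown values lay close to those of stimulated wild-type cells (mean 1.92 ± 0.405 CPM, SD, n = 5).

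Nlrc5 stood at 3.27, 2.62 and 2.16 CPM with LSD1 knockdown, which overlapped the no-target library at 3.10 CPM. Its log2 difference was -1.32 (SE 0.58; edgeR adjusted p 0.641). Among all 27 libraries, values as low as these were also seen in a starved wild-type library, at 2.33 CPM.

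Outside the module, the sensing adaptor Tmem173 (STING) rose with LSD1 knockdown, by 2.08 on the log2 scale (SE 0.40; edgeR adjusted p 0.0242), from 11.9 ± 3.32 CPM (SD, n = 5) to 50.1 ± 43.2 CPM (SD, n = 3). It was the only one of the 76 pathway genes called in that comparison.

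Knockdown of HDAC3 left 0 of 34 members called, with 0.0248% of all genes called; 4 members had an unadjusted p under 0.05, with 5.69% of all genes at that level, and DESeq2 called 0. All 4 were on the low side: Gbp3, Irf7, Oas2 and Gbp2. The median log2 fold change was -0.12 for the members and 0 for all genes. The groups did not overlap for Gbp3 and Oas2 and for 2.45% of all genes. Mast cell, basophil and eosinophil markers summed to 28.6 to 93.5 CPM with HDAC3 knockdown, below every no-target library, and their part was not tested.

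Irf7 stood at 8.06, 8.28 and 8.96 CPM with HDAC3 knockdown. Only no-target replicate 1, at 8.38 CPM and with many reads outside genes, was as low. Its log2 difference was -0.70 (SE 0.25; edgeR adjusted p 0.718), and -0.85 without the 5 shallow libraries, where a single HDAC3 library remained.

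Oas2 (chr5:120730333-120749853), a sensor of double-stranded RNA, stood at 0.248, 0.176 and 0.176 CPM with HDAC3 knockdown and at 0.405, 1.66, 1.01, 0.905 and 0.432 CPM with no target. The estimate was -2.08 on the log2 scale (95% interval -3.78 to -0.39; edgeR adjusted p 0.777) and rests on few reads. Gbp3, at 2.36, 1.94 and 0.966 CPM, had a log2 difference of -1.32 (edgeR adjusted p 0.651). It was -2.37 with HDAC3 replicate 3 alone, once the 5 shallow libraries were left out.

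LSD1 and HDAC3 knockdown were also set against each other, which tests whether these 2 effects differ. Of 34 members 0 were called, with 0.820% of all genes called; 9 members had an unadjusted p under 0.05, with 14.2% of all genes at that level. Of these 9, 8 were higher with LSD1 knockdown (Irf7, Isg15, Isg20, Ifit3, Oas1a, Oas2, Bst2 and Ifitm3) and Adar was lower. With only the groups compared, 4 of 29 members had an unadjusted edgeR p under 0.05, as had 577 of 11050 genes. A count without the 5 shallow libraries is not given, since a single HDAC3 library remained. The groups did not overlap for 6 members (Irf7, Isg15, Oas2, Oasl2, Mx1 and Nlrc5) and for 10.5% of all genes. DESeq2 called 1, Irf7, with 2.68% of all genes called by it.

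Irf7 stood at 9.96, 26.1 and 15.6 CPM with LSD1 knockdown, all above the HDAC3 libraries given above. The log2 difference was 1.04 (SE 0.28), with an adjusted p of 0.0726 in edgeR and 0.0173 in DESeq2. Without LSD1 replicate 1, which had 24.9% of reads outside genes, it was 1.31 (edgeR adjusted p 0.0130), and Bst2 was then also called at 1.26 (adjusted p 0.0405). In that fit 403 of 12176 genes were called. Without all 5 shallow libraries, where a single HDAC3 library remained, the Irf7 difference was 1.21. Other alternatives did not call Irf7. The difference was 0.77 (edgeR adjusted p 0.110) with a term for those 5 libraries and 1.03 (0.898) with only the groups compared. It was 0.61 (0.50) without LSD1 replicate 2. Bst2 was at 0.54 (adjusted p 0.380) with the term.

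Most of the other differences were smaller without the 5 shallow libraries, a setting in which a single HDAC3 library remained and had no replicate. Ifit3 went from 2.16 to 0.81 on the log2 scale, Isg15 from 1.77 to 0.99, Isg20 from 0.95 to 0.52, Ifitm3 from 0.85 to 0.45, Oas1a from 0.72 to 0.45 and Adar from -0.40 to -0.12. Bst2 went from 0.91 to 0.79 and Oas2 from 2.49 to 2.34. Marker genes of mast cells, basophils and eosinophils also differed, with a summed level of 1019 to 4051 CPM in LSD1 and 28.6 to 93.5 CPM in HDAC3 knockdown libraries, against 113 to 1065 CPM with no target; each of the 5 markers had a median above 1 CPM. Their part in these results was not tested. Of the pathway genes outside the module, Ifngr2, a chain of the type II interferon receptor, was higher with LSD1 than with HDAC3 knockdown by 1.39 (edgeR adjusted p 0.0112).

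In each of the 7 groups the members' median coefficient of variation between replicates was above that of all genes tested. Averaged over the libraries, 18 of the 34 tested members were at 10 CPM or more, as were 8883 of the 12073 genes. The median coefficient of variation of CPM was 14.4% in stimulated wild-type libraries and 34.04% in no-target libraries, against 11.8% and 24.9% for all genes tested. In the STAT5B group it was 29.9% against 20.4%. In the no-target group Irf1 spread widely, at 84.8, 29.7, 24.3, 49.8 and 123 CPM, so that the difference of 0.66 to stimulated wild type (edgeR adjusted p 0.372) was within its spread. Samhd1 and Irf2 varied little between groups, with the highest group mean 1.23 and 1.12 times the lowest.

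Some members moved together between replicates. The pairs named here were picked after their values were seen, from the higher correlations among all pairs of tested members, so they are not typical pairs. Within groups, over 27 libraries, the correlation of log2 CPM was 0.88 for Ifit2 with Dtx3l, 0.84 for Eif2ak2 with Parp14, 0.83 for Bst2 with Ifi35 and 0.75 for Gbp2 with Gbp3. Genes of the first 3 pairs also followed the library difference described above. Within groups, the correlation with the share of reads outside genes was 0.89 for Eif2ak2, 0.74 for Parp14, 0.71 for Dtx3l, 0.67 for Ifit2, -0.71 for Ifi35 and -0.81 for Bst2. For Mx1, Gbp3 and Ifit1 that correlation was between 0.04 and 0.06, and Mx1 correlated with Ifit1 at 0.71 and with Gbp3 at 0.64. These are descriptions, with no test, over libraries that differ in depth and may differ in preparation.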

How the data were processed

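PolyA RNA of Ba/F3 cells was sequenced in 27 libraries, assigned to 7 groups from their labels. The deposited files held raw counts of reads per gene symbol; per the submitters' processing notes, Trimmomatic 0.30, TopHat2 2.0.10, HTSeq 0.5.4p5, DESeq2 1.2 and mm10 were used, with counting mode, strand setting and annotation not given in the sources used here. The 5 summary rows of each file entered neither library sizes nor tests; they hold the reads outside genes, of which the share was 8.70 to 24.9%. Members, gene lists and tests were chosen with earlier results of these data known.

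CPM used library sizes scaled by TMM (edgeR's default normalization), and CPM per kb used the exon length in GENCODE vM21 (GRCm38/mm10), matched by symbol for all 38 genes. All 27 libraries entered 1 edgeR quasi-likelihood fit (R 4.3.3, edgeR 4.0.16, limma 3.58.1; robust, filterByExpr, a mean per group, no covariate), with Benjamini-Hochberg adjustment over 12073 genes and a threshold of 0.05. Approximate 95% intervals are the log2 fold change ± the t quantile with 20 degrees of freedom times the standard error. The fit was checked on simulated counts. Intervals cover the spread between libraries, and PCR copies were not told apart from independent molecules.

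Alternatives were RLE factors, no filter on low counts, DESeq2 1.42.0, only the groups compared, a replicate block, leaving out each replicate, leaving out the 5 libraries with over 13% of reads outside genes, and a term for that set. The labels number the wild-type libraries alike in both groups, and in all 5 pairs same-numbered libraries deviated together (correlation 0.37 to 0.72), so they were taken as pairs; in no other comparison did every pair do so. All 42 within-group pairs of libraries differed beyond counting noise.

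Per-library values were given, by rule, for the 8 members with the smallest unadjusted p against no-target or between wild types, since none was called (Gbp3, Irf7, Tap1, Oasl1, Oas2, Nlrc5, Irf9 and Dhx58). Mx1, Ddx58, Eif2ak2, Irf1 and Bst2 were added, and the 5 promoters picked, after their values were seen.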

Additional observations from a re-analysis of the deposited data

Results flagged for a closer look

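In groups of 5 libraries, 7 of 102 member-group sets held 1 library far from the other 4 (gap over range above 0.71, Dixon's critical value); chance gives about 1 in 20 such sets. In starved wild-type replicate 1, Oas2 stood at 1.79 CPM, with the other 4 libraries at 0.217 to 0.561, and Usp18, the protease that removes ISG15, stood at 2.72 CPM, with the others at 0.631 to 1.08. In the stimulated library of the same number, Usp18 stood at 2.43 CPM, with the others at 0.792 to 0.978, and Ifit1 at 0.652 CPM, with the others at 0.391 to 0.466. In stimulated replicate 3, Oas2 was low, at 0.313 CPM against 0.951 to 1.16. In starved replicate 3, Ifi35 stood at 35.7 CPM, with the others at 21.6 to 25.0. In no-target replicate 3, 1 of the 5 libraries with many reads outside genes, Parp14 stood at 79.2 CPM, with the others at 34.6 to 45.7.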

How the results depend on the processing

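Under 120 alternatives to the count of members called (8 comparisons), 115 left it at 0. After IL3 it was 2 of 29 with only the groups compared (Irf9, Tap1), with 1170 of 11195 genes called. It was 3 of 29 with the replicate block (Irf9, Tap1, Dhx58), with 2504 of 11195 genes called. With the 5 shallow libraries rich in reads outside genes left out it was 1 of 35 (Irf9), with 876 of 12224 genes called. Between LSD1 and HDAC3 knockdown it was 1 of 33 with DESeq2 (Irf7), with 318 of 11860 genes called, and 0 to 2 when each replicate was left out. The 2 (Irf7, Bst2, of 34) came without LSD1 replicate 1, with 403 of 12176 genes called. The block changed no other member's call, and outside the wild-type comparison not every same-numbered pair deviated together (correlations -0.70 to 0.67). Of 506 alternative log2 fold changes for 34 differences with an unadjusted p under 0.05, 505 kept their direction; Eif2ak2 in no-target against wild type was -0.0099 (adjusted p 0.991) with a term for the 5 libraries, which had been 0.72. The cause of these changes was not tested, beyond the fewer or paired libraries that each alternative has by construction. Genes called overall moved more: after IL3 from 461 to between 363 and 2504 (298 without stimulated replicate 4), with STAT5A knockdown from 8 to 0 to 32, with STAT5B knockdown from 41 to 0 to 148 (5 to 171 leaving out replicates), with LSD1 knockdown from 20 to 0 to 54 (5 to 57), with HDAC3 knockdown from 3 to 0 to 8 (0 to 9), in no-target against wild type from 0 to 0 to 122, in STAT5A against STAT5B from 3 to 0 to 12 (2 to 9), and in LSD1 against HDAC3 from 99 to 0 to 318 (4 to 403, the former without LSD1 replicate 2). Depth limits the low genes most: 3 counts correspond to 0.528 CPM in the shallowest library.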
